A study of Mus musculus with 6 samples.

Results

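The transcripts of Lmo2, Rhob and Foxo1 were higher in neutrophils of miR-223 null mice than in those of wild-type mice. They are among 7 genes published as targets of the microRNA miR-223. The rise was 1.52 to 1.80-fold in the 4 of 10 tested probe sets that passed (limma adjusted p of 0.00585 to 0.0333). Over all tested probe sets, 2.78% passed as higher. For Foxo1, 2 of the 3 probe sets passed, and both calls ended when any array was left out of this fit. E2f1 did not pass the test, and Nfia was too dim to be included in it. A division of the arrays was inferred from their hybridization controls. With it in the fit, 1 of the 2 probe sets for Fbxw7 rose and Stmn1 fell. Each of these calls held in 2 of the 6 such fits that left out an array. With the division and all arrays, 11.0% of all tested probe sets passed, 5.57% as higher and 5.38% as lower. Without the division, neither gene passed. The genes were chosen from the literature on miR-223, and each is represented by the probe sets that the selection pairs with it: 1 for Lmo2, 3 for Foxo1, 2 for E2f1, 3 for Nfia, 1 for Rhob, 1 for Stmn1 and 2 for Fbxw7. That makes 13 of the 45101 probe sets on the array. Each probe set reads a transcript through several short probes.

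The groups were 3 arrays of neutrophils from miR-223 null mice and 3 arrays of neutrophils from wild-type mice. Both groups were taken straight from bone marrow with an antibody to Gr-1 and magnetic columns, without culture or treatment. Strain, age, sex and the construction of the null allele are not given in the labels, nor is it stated whether each array stands for an animal of its own. The p-values therefore rest on the spread between these arrays, which may be technical. Gr-1 antibodies also bind Ly6C on monocytes. The deposited table gives no gene for its probe sets, and the purity of the cells, other cell types and the level of miR-223 itself were not analysed here. RNA of the whole sorted population was measured, so a difference in transcript per cell and a difference in the number of cells that carry it cannot be told apart.

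MicroRNAs guide Argonaute proteins to messenger RNAs, mostly through pairing of the seed, the stretch near the microRNA's 5′ end, and lower the stability and translation of what they bind. miR-223 is made in the myeloid lineage and accumulates as granulocytes mature. The 7 genes were reported as its targets in several cell types and partly in other species: Lmo2 in red cell and myeloid differentiation, Nfia in human promyelocytic cells, E2f1 in myeloid cells, Rhob in reporter assays, and Stmn1, Foxo1 and Fbxw7 largely in tumour cells. The sequences of both strands of the precursor are shown because the seed defines which transcripts can pair. They are RefSeq's for the mouse build GRCm38.p6, written 5′ to 3′ with bases 2 to 8 in capitals.
mmu-miR-223-3p: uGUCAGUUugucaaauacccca
mmu-miR-223-5p: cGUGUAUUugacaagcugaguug
The 3p strand is encoded at chrX:96242884-96242905 and the 5p strand at chrX:96242842-96242864, both on the plus strand. The full seed match in a target of the 3p strand, the complement of bases 2 to 8 followed by an A, reads AACUGACA. Of 1738 mature mouse microRNAs in the RefSeq table, 1 has this seed, miR-223-3p itself. Sites in the 7 transcripts were not analysed here.

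The values were log2 expression values as the authors deposited them, and a difference of 1 is a doubling. Differences are null minus wild type. Probe sets were tested when their mean over the 6 arrays was at least 4.83, the median over all probe sets. This kept 10 of the 13 probe sets, for 6 of the 7 genes, and left out the 3 of Nfia. The arrays fell into a pair of technical sets by their hybridization controls, which are added to each sample after labelling. A brighter set held null 1, null 2 and wild type 1, with control means of 10.94 to 10.98, and a dimmer set held null 3, wild type 2 and wild type 3, at 10.72 to 10.81. The names describe these controls, from which the division was inferred, and not the arrays as a whole. Array medians were 4.81 to 4.84 in the brighter set and 4.82 to 4.84 in the dimmer set. Each set holds both groups, and the sets were used as a block in a second fit. The 3′ probe set for 18S ribosomal RNA followed the sets too, at 9.07 to 9.97 in the brighter set and 8.50 to 8.80 in the dimmer set. Whether the sets stem from handling of the arrays or from the samples was not tested.

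Of the 10 tested probe sets, 4 were higher and 0 lower in null cells at a threshold of 0.05 on the adjusted p (limma, Benjamini-Hochberg over 22519 probe sets). Over all tested probe sets, 3.84% passed, with 2.78% higher and 1.06% lower. The 4 were those of Lmo2 and Rhob and 2 of the 3 for Foxo1. The 6 tested probe sets not called had adjusted p between 0.0577 and 0.988 in limma. With the technical set as a block, 6 were higher and 1 was lower, against a background of 11.0% in all, 5.57% higher and 5.38% lower. The block added the other probe set of Foxo1 and 1 of Fbxw7 to the rises, and Stmn1 as a fall. The median difference of the 10 was 0.51, with a range of −0.46 to 0.85, and that of all tested probe sets was −0.01. In 7 of the 10 all null values lay above all wild-type values, in 0 all lay below, and in 3 the groups overlapped. Among all that were tested, 12.8% had every null value on top and 11.8% had every null value at the bottom.

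**Figure D1:**
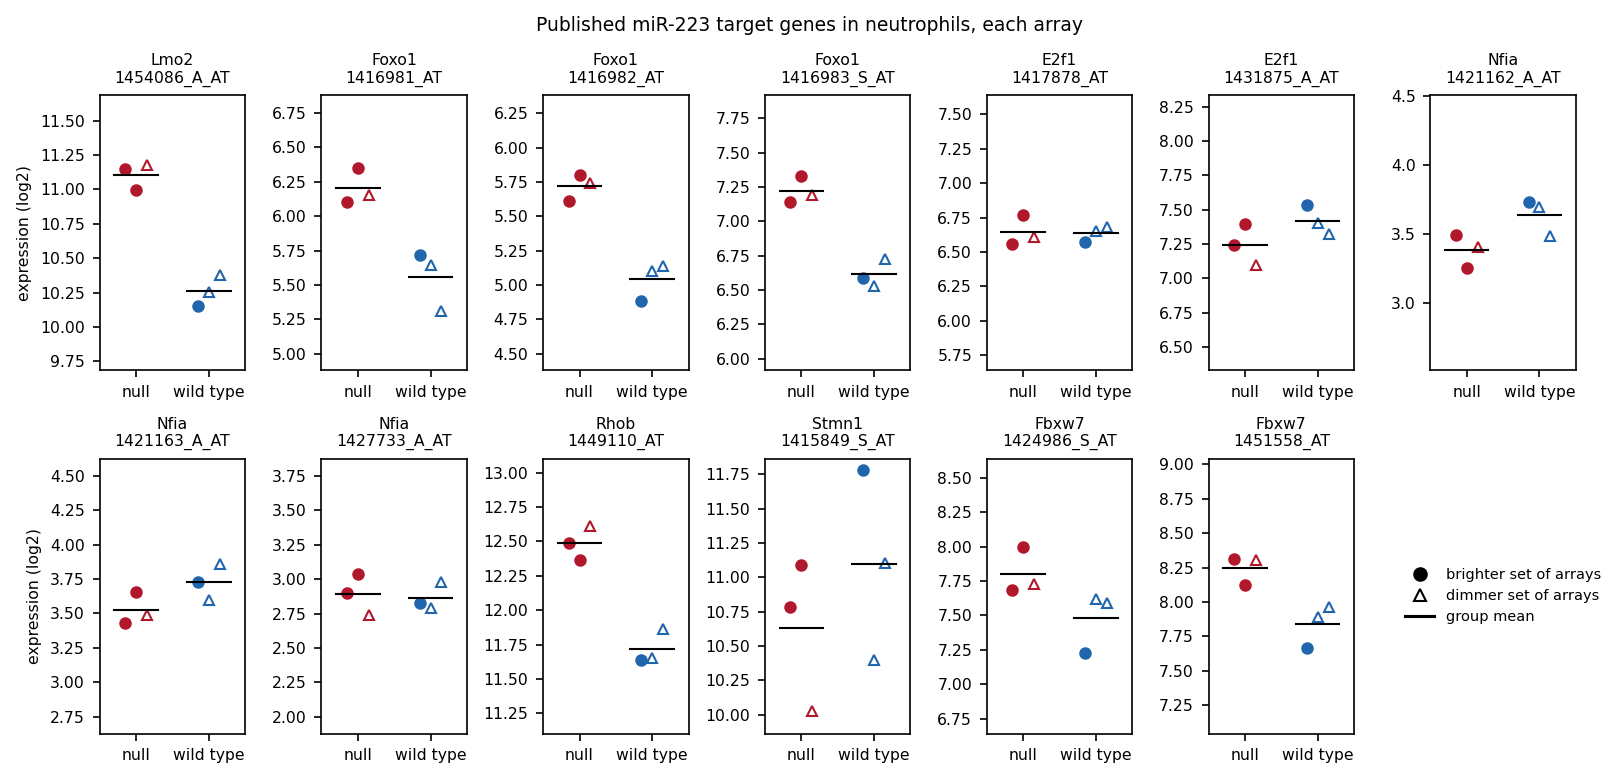
Log2 expression of the 13 probe sets on each array, null arrays on the left of each panel and wild-type arrays on the right, with filled circles for the brighter and open triangles for the dimmer technical set and a line at each group mean. Every panel spans 2 log2 units. The groups do not overlap for Lmo2, Foxo1, Rhob and Fbxw7, while Stmn1 spreads from 10.03 to 11.78.

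Lmo2, Foxo1, E2f1 and Nfia regulate transcription. Lmo2 is an adaptor with LIM domains that bridges the DNA-binding partners of blood-forming transcription complexes, and it is best known in stem cells and red cell precursors. Its probe set 1454086_A_AT read 11.15, 11.00 and 11.18 on the null arrays, against 10.15, 10.26 and 10.38 on the wild-type arrays. The lowest null array stood 0.62 above the highest wild-type array. It averaged 11.11 ± 0.10 on the null arrays and 10.26 ± 0.11 on the wild-type arrays (SD, n = 3 each). The difference was 0.85 with a 95% confidence interval of 0.64 to 1.05, or 1.80-fold (limma adjusted p = 0.00585). This was the largest of the differences among the 10 tested probe sets. It was 0.92 within the brighter set and 0.86 within the dimmer set. The call held in each of the 6 fits that left out an array, with differences of 0.79 to 0.90 (limma adjusted p at most 0.0483).

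Foxo1 is a forkhead transcription factor that growth factor signalling through Akt keeps out of the nucleus, and in active form it drives genes of cell cycle arrest, metabolism and survival. Probe set 1416982_AT read 5.61, 5.80 and 5.74 on the null arrays, against 4.89, 5.11 and 5.14 on the wild-type arrays. Probe set 1416983_S_AT read 7.14, 7.33 and 7.19 on the null arrays, against 6.59, 6.53 and 6.73 on the wild-type arrays. Probe set 1416981_AT read 6.10, 6.35 and 6.16 on the null arrays, against 5.72, 5.65 and 5.31 on the wild-type arrays. In all 3 probe sets every null array was above every wild-type array. The gap between the groups was 0.47, 0.42 and 0.39 in the same order.

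The 3 probe sets of Foxo1 gave similar sizes of difference. For 1416982_AT it was 0.67 with an interval of 0.39 to 0.95, or 1.59-fold (limma adjusted p = 0.0300). For 1416983_S_AT it was 0.61, from 0.34 to 0.87, or 1.52-fold (limma adjusted p = 0.0333). For 1416981_AT it was 0.64, from 0.30 to 0.98, which missed the threshold without the block (limma adjusted p = 0.0577) and passed with it, at 0.59 (limma adjusted p = 0.0454). That blocked call was lost when any array other than wild type 2 was left out (limma adjusted p of 0.0712 to 0.291). Both calls of the fit without a block rest on all 6 arrays, since leaving out any of them ended both. The differences in those fits were 0.59 to 0.73 for 1416982_AT (limma adjusted p of 0.0615 to 0.118) and 0.56 to 0.66 for 1416983_S_AT (limma adjusted p of 0.0597 to 0.132). With the block, the call of 1416982_AT held in 3 of the 6 omissions and that of 1416983_S_AT in 2 of the 6. Within the brighter set the 3 probe sets differed by 0.51 to 0.82 and within the dimmer set by 0.57 to 0.68, all higher in null cells. The suffix _S_AT is Affymetrix's mark for a probe set that may match more than a single gene, and 1416983_S_AT carries it.

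E2f1 is a transcription factor that, released from the retinoblastoma protein, turns on genes for DNA replication. Probe set 1417878_AT read 6.56, 6.77 and 6.61 on the null arrays, against 6.58, 6.65 and 6.68 on the wild-type arrays. Probe set 1431875_A_AT read 7.24, 7.40 and 7.10 on the null arrays, against 7.54, 7.40 and 7.32 on the wild-type arrays. The groups overlapped in both, and neither probe set passed the threshold. The difference was 0.01 for 1417878_AT, with an interval of −0.25 to 0.27 (limma adjusted p = 0.988). For 1431875_A_AT it was −0.17, from −0.46 to 0.11 (limma adjusted p = 0.518). The interval of the first probe set leaves out a rise of the size seen for Lmo2 or Foxo1, and that of the second reaches less far upward. For 1417878_AT the sign itself varied, at 0.09 within the brighter and −0.06 within the dimmer set, while 1431875_A_AT was lower in null cells within both, at −0.22 and −0.26.

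Nfia is a transcription factor that, in human myeloid cells, holds back granulocyte differentiation and competes with C/EBPα at the promoter of miR-223. All 3 of its probe sets were below the level required for testing. Probe set 1421162_A_AT read 3.49, 3.25 and 3.40 on the null arrays, against 3.73, 3.70 and 3.48 on the wild-type arrays. Probe set 1421163_A_AT read 3.43, 3.65 and 3.49 on the null arrays, against 3.73, 3.60 and 3.86 on the wild-type arrays. Probe set 1427733_A_AT read 2.90, 3.04 and 2.74 on the null arrays, against 2.82, 2.79 and 2.98 on the wild-type arrays. The groups overlapped in all 3. In a fit of all 45037 probe sets other than controls, where 1.55% passed, none of the 3 did (limma adjusted p of 0.385, 0.529 and 0.960). At unadjusted p, 1421162_A_AT reached 0.0443 with a difference of −0.26.

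Rhob and Stmn1 encode proteins that act on the cytoskeleton. Rhob is a small GTPase of endosomes and the actin cytoskeleton whose transcript is short-lived and quickly induced by stress. Probe set 1449110_AT read 12.49, 12.37 and 12.61 on the null arrays, against 11.64, 11.65 and 11.86 on the wild-type arrays. Every null array lay at least 0.50 above every wild-type array. It averaged 12.49 ± 0.12 on the null arrays and 11.72 ± 0.13 on the wild-type arrays (SD, n = 3 each). The difference was 0.77 with an interval of 0.57 to 0.98, or 1.71-fold (limma adjusted p = 0.00779). Within the brighter set it was 0.79 and within the dimmer set 0.86. Leaving out null 1 left the size at 0.77 but ended the call (limma adjusted p = 0.0587). The other 5 omissions kept it, and in the blocked fit it held whichever of the 6 arrays was left out.

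Stmn1 encodes stathmin, which binds tubulin dimers, destabilises microtubules and is most abundant in dividing cells. Its probe set 1415849_S_AT read 10.79, 11.09 and 10.03 on the null arrays, against 11.78, 10.40 and 11.10 on the wild-type arrays. The groups overlapped widely, and the SDs of 0.55 in null and 0.69 in wild-type cells were the largest of the 13 probe sets. The difference without the block was −0.46, with an interval of −1.33 to 0.41 (limma adjusted p = 0.592). Within each technical set the order was the same. Both null arrays of the brighter set, at 10.79 and 11.09, were below its wild-type array at 11.78, and the null array of the dimmer set, at 10.03, was below its wild-type arrays at 10.40 and 11.10.

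The difference in Stmn1 was −0.85 within the brighter set and −0.73 within the dimmer set. With the technical set as a block, Stmn1 fell by 0.79 in null cells, with an interval of −1.21 to −0.36, which makes wild-type cells 1.72-fold higher (limma adjusted p = 0.0346). That call was lost when null 1, null 2, null 3 or wild type 1 was left out of the blocked fit. The size then lay between −0.85 and −0.71 (limma adjusted p of 0.0786 to 0.262). It held without wild type 2 at −0.95 and without wild type 3 at −0.64. No other tested probe set of the 7 genes passed downward, and Stmn1 passed in no fit without the block. Its suffix _S_AT means that related sequences may contribute to the signal.

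**Figure D2:**
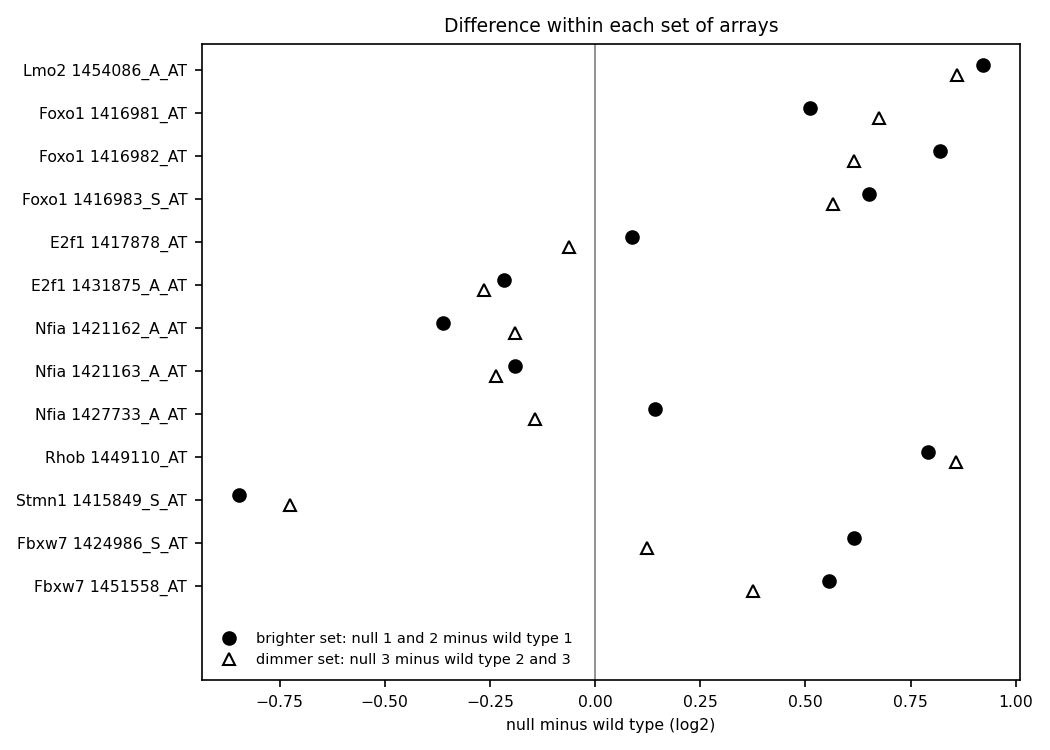
Difference between null and wild-type neutrophils (log2, horizontal axis) for each probe set, computed separately in the brighter set (filled circles, null 1 and 2 against wild type 1) and the dimmer set (open triangles, null 3 against wild type 2 and 3). Stmn1 lies near −0.85 and −0.73, Lmo2 near 0.92 and 0.86, and 1417878_AT of E2f1 on either side of 0.

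Fbxw7 is the substrate receptor of an SCF ubiquitin ligase that marks cyclin E, Myc, Jun and other growth regulators for breakdown. Probe set 1451558_AT read 8.31, 8.13 and 8.30 on the null arrays, against 7.66, 7.89 and 7.97 on the wild-type arrays. Probe set 1424986_S_AT read 7.68, 7.995 and 7.73 on the null arrays, against 7.22, 7.62 and 7.59 on the wild-type arrays. All null arrays lay above all wild-type arrays in both, by 0.16 and 0.07. Neither probe set passed in the fit without a block. For 1451558_AT the difference was 0.41, from 0.14 to 0.68 (limma adjusted p = 0.106), and for 1424986_S_AT it was 0.32, from −0.02 to 0.67 (limma adjusted p = 0.295). With the block, 1451558_AT passed at 0.47, or 1.38-fold (limma adjusted p = 0.0296), and 1424986_S_AT did not at 0.37 (limma adjusted p = 0.162). The blocked call of 1451558_AT ended when any null array or wild type 1 was left out (limma adjusted p up to 0.275). The probe sets differed in how even the difference was. It was 0.56 and 0.38 within the brighter and dimmer sets for 1451558_AT, and 0.62 and 0.12 for 1424986_S_AT.

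**Figure D3:**
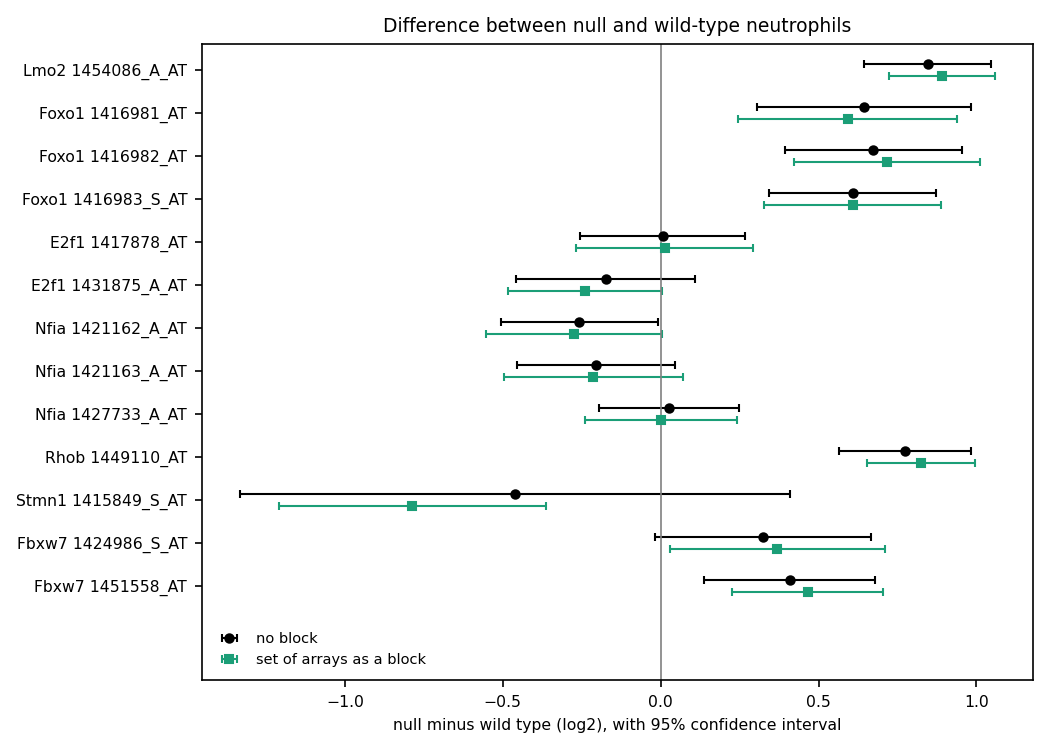
Null minus wild-type difference (log2, horizontal axis) with its 95% confidence interval for the 13 probe sets, without a block (black circles) and with the block of technical sets (green squares). The intervals of Lmo2, Rhob, the 3 Foxo1 probe sets and 1451558_AT of Fbxw7 lie above 0 in both fits. That of Stmn1 spans −1.33 to 0.41 without the block and −1.21 to −0.36 with it. The intervals are not adjusted for the number of tests. Without the block, 4215 of the 22519 tested probe sets had an unadjusted limma p under 0.05.

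The direction of the difference was the same within both technical sets for 9 of the 10 tested probe sets, with 1417878_AT of E2f1 as the exception. Over all tested probe sets the share was 66.7%. The rise of Lmo2 was exceeded by 1.25% of all tested probe sets and that of Rhob by 1.67%. The differences of Foxo1 were exceeded by 2.44 to 3.06% and those of Fbxw7 by 6.86 and 9.79%. On the falling side, 3.72% of tested probe sets had a lower difference than Stmn1 without the block.

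**Figure D4:**
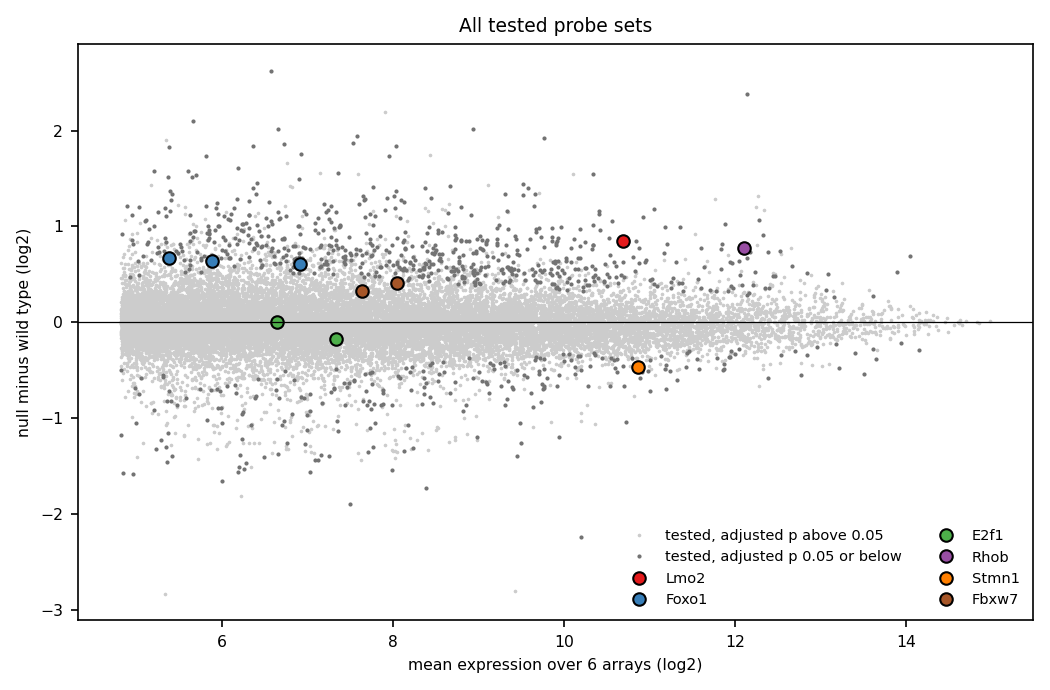
Null minus wild-type difference (log2, vertical axis) against mean expression over the 6 arrays (log2, horizontal axis) for the 22519 tested probe sets, dark grey where the adjusted p was 0.05 or below, with the 10 tested probe sets of the target genes in colour. Lmo2 lies at 0.85 and Rhob at 0.77, the Foxo1 points lie near 0.6 to 0.7, and those of E2f1 near 0.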

How the data were processed

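RNA of 3 miR-223 null and 3 wild-type neutrophil samples was hybridised to Affymetrix arrays. The values are log2 expression levels as deposited by the authors, with 1 value for each probe set on each array. The submitters' processing notes name GCOS. Its version and the steps from scanned image to value are details not given in the sources used here. That the scale is log2 was read from the range, 2.12 to 14.98. Sorted columns lay within 0.0890 of each other at every rank, and no further scaling was applied. Scanner intensities and detection calls were not used here.

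The 64 control probe sets were left out. The other 45037 were filtered at a mean of 4.83, which left 22519 for limma 3.58.1 in R 4.3.3 (lmFit, eBayes with an intensity trend, no covariate, two-sided, Benjamini-Hochberg, threshold 0.05). Standard errors of the differences had a median of 0.128, and precision is limited by the number of arrays. The fit was tested on simulated data. Recovery was required there only for changes larger than any difference among the target gene probe sets. Figures were drawn with matplotlib 3.10.9. Technical sets were divided at the largest gap (0.131, the next being 0.0501) in the mean of 18 hybridization control probe sets.

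All 13 probe sets of the selection are named. The pairs of probe sets and genes come from the selection, and all 7 symbols are in RefSeq's gene table. Lists of related genes and cell markers could not be used, since no table at hand pairs other probe sets with genes. The members, lists and alternatives were chosen with earlier results of these data known.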

Additional observations from a re-analysis of the deposited data

How the results depend on the processing

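Of 279 refits of single probe sets, 232 kept their direction and side of the threshold. Over all probe sets the count of calls was 864 without a block. It was 2466 with the technical set as a block, 2098 with that block and no filter, and 119 with null 1 and 2 averaged. Leaving out each array in turn gave 85 to 592 calls. With the block it was 928 without null 1, 891 without null 2, 464 without null 3, 123 without wild type 1, 2909 without wild type 2 and 2418 without wild type 3. Of the target gene probe sets, 4 were called. The count was 7 with the block, 2 with null 1 and 2 averaged and 1 to 2 without each array in turn. With the block it was 3 without null 1, 2 without null 2, null 3 or wild type 1, 7 without wild type 2 and 6 without wild type 3. Each omission leaves fewer arrays to estimate the spread, but it did not widen the error of every probe set. With the block, the standard error of Stmn1 was 0.181 on all arrays, 0.272 without null 3 and 0.102 without wild type 2. The combinations of the block with omitted arrays or no filter were chosen after seeing the data.

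Without null 1 the only call was Lmo2, and each of the other 5 omissions left Lmo2 and Rhob, as did averaging null 1 and 2. With no filter under the block, 1416981_AT of Foxo1 missed the threshold (difference 0.59, limma adjusted p = 0.0572). Quantile normalization, median centring, an offset of 16 on the linear scale, no intensity trend and no filter each left 4 calls.

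The sign changed only in probe sets near 0. For 1427733_A_AT of Nfia (0.03) the difference was −0.00021 with the block, with or without the filter, −0.0102 with null 1 and 2 averaged, and −0.045 to 0.10 without each array. With the block it was −0.050 without null 2, −0.14 without wild type 1 and −0.021 without wild type 2. For 1417878_AT of E2f1 (0.01) it was −0.00235 after quantile normalization, −0.00277 with null 1 and 2 averaged, and −0.056 to 0.050 without each array. With the block it was −0.044 without null 2 and −0.062 without wild type 1.

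Both groups carry replicate numbers 1 to 3. Deviations from the group means correlated at 0.211, −0.124 and 0.371 for numbers 1, 2 and 3, and number 2 did not follow the others, so no pairing was assumed. With the replicate block 857 probe sets passed, 3 of them of the target genes, and 1416983_S_AT of Foxo1 missed the threshold at a difference of 0.61 (limma adjusted p = 0.0580).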
